A study of Mus musculus with 16 samples.

Results

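Accessible chromatin was examined around 7 genes of the interleukin-1 (IL-1) system in mouse bone marrow-derived macrophages (BMDMs). The genes were Il1b, Il1a, Il1rn, Il18, Nlrp3, Casp1 and Casp4. Overlapping ATAC-seq peaks of the 4 treatment groups were merged into 37648 regions, and a region was assigned to a gene when its midpoint was at most 100 kb away from the gene's transcription start site (TSS). This gave 44 regions, of which 15 lay within reach of 2 of the genes and were counted once. Il1b had 8 regions, Il1a 10, Il1rn 7, Il18 10, Nlrp3 10, and Casp1 and Casp4 the same 7, against a median of 5 over 21938 protein-coding genes.

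All cells came from C57BL/6J mice, and the study's methods give females aged 8-10 weeks. Marrow was differentiated in L-cell conditioned medium, deprived of serum for a day and then treated for 3 h with DMSO (Veh) or with the synthetic liver X receptor (LXR) agonist T0901317 (T0) at 500 nM. Veh and T0 cells were collected at that point. LPS and T0-LPS cells had 10 ng/mL lipopolysaccharide, a bacterial TLR4 ligand, added to the same medium for a further 2 h, so that comparisons of LPS with Veh also compared culture times. Each group had 4 libraries of 50000 cells, 16 in all, and the authors pooled the 4 libraries of a group into 1 peak list. There was therefore no replicate check of any value, no test was possible, and the depth per library was unknown. The lists hold only peaks at macrophage enhancers, which the authors took from H3K27ac or H3K4me2 in other macrophages.

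IL-1α and IL-1β are cytokines that act through the same receptor, and Il1rn encodes the receptor antagonist that blocks both. IL-1β and IL-18 are made as inactive precursors and are cleaved by caspase-1, which is activated in inflammasomes such as the one assembled by the sensor NLRP3. Caspase-4 (also called caspase-11 in mice) responds to LPS in the cytosol. In macrophages, TLR4 signalling through NF-κB induces Il1b, Il1a and Nlrp3, whereas Casp1 is expressed before stimulation.

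The sequences below are the central 200 bases of 10 of the regions, read from GRCm38 on the plus strand, 5′ to 3′, and named by gene and by the distance of the region's midpoint from the TSS (negative upstream). Capitals mark matches, on either strand, to consensus letters for NF-κB, AP-1 (TGANTCA), PU.1 (GAGGAAGT), C/EBP (TTGCNNAA), the interferon-stimulated response element (ISRE) and the nuclear receptor half-site (AGGTCA). The region nearest the Il1b TSS is shown first. It is followed by regions of Il1b and Il1a that differed widely between the lists or held a peak in a single list. A region near the Il1rn TSS with an NF-κB match comes next. Then come T0-closed regions of Nlrp3 and Il18 (peak in Veh, none in T0). The Casp4 region that differed most between LPS and Veh is last. No match of one kind overlapped a match of another kind.
Il1b -2319 bp, chr2:129373358-129373557: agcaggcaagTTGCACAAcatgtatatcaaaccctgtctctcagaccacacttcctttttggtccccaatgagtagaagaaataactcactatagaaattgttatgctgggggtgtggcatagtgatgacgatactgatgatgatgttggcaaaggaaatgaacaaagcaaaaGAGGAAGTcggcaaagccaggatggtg
Il1b -9311 bp, chr2:129380350-129380549: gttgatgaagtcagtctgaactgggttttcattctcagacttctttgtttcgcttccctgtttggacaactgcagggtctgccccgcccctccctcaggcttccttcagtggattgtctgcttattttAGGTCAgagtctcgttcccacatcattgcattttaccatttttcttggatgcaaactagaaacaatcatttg
Il1b -9817 bp, chr2:129380856-129381055: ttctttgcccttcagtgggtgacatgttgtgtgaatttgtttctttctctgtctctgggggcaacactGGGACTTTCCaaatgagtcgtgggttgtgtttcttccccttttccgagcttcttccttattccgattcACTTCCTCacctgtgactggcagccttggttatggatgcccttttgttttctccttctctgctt
Il1a -10227 bp, chr2:129320099-129320298: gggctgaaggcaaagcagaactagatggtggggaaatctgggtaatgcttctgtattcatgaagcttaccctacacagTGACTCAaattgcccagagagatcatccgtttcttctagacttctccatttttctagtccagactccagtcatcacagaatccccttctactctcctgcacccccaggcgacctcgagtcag
Il1a -20775 bp, chr2:129330647-129330846: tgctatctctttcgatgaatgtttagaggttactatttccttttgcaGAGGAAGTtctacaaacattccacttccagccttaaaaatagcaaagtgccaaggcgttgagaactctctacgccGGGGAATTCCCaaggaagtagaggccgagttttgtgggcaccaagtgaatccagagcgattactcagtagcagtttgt
Il1a -28433 bp, chr2:129338305-129338504: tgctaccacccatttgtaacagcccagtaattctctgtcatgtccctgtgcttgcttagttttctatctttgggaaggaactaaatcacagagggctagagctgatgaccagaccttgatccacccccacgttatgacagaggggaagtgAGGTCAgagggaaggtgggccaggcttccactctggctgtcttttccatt
Il1rn -1388 bp, chr2:24335365-24335564: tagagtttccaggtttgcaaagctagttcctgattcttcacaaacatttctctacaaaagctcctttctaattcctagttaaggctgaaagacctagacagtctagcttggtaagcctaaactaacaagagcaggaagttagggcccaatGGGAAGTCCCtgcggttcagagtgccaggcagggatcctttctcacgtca
Nlrp3 2626 bp, chr11:59544094-59544293: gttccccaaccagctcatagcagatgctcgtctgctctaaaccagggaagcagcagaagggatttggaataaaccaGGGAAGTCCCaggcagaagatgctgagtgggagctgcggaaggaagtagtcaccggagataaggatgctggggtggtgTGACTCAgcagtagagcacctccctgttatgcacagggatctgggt
Il18 -1034 bp, chr9:50553693-50553892: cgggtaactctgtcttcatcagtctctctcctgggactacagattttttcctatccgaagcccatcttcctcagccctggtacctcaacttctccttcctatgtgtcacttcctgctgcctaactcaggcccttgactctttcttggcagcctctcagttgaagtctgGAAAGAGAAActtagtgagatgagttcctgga
Casp4 3050 bp, chr9:5311778-5311977: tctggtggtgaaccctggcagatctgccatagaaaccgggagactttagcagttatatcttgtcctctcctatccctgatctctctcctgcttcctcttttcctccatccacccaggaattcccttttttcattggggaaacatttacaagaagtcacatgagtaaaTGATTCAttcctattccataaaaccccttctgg

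The Veh list held 35551 peaks, T0 29839, LPS 33181 and T0-LPS 31085. Each peak carries a score, taken to be that of the authors' peak caller although no header says so. Such a score grows with depth, so it is given here as its percentile, the percentage of peaks in the same list that scored at or below it. Differences in percentile are in points. Marker genes were set beside the cell label. This check was one-sided, because the lists hold only peaks at macrophage enhancers. Low counts for other cell types therefore say little about the cells. A peak lay within 1 kb of the TSS of 10 of 10 macrophage markers in Veh and LPS and of 9 of 10 in T0 and T0-LPS, where Csf1r had none. The same held for 0 of 5 T cell markers, 1 of 4 B cell markers (Ms4a1) and 1 of 5 neutrophil markers (S100a8) in every list. Of 3 fibroblast markers, Col1a1 had such a peak in Veh and none had one in the other lists.

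Peaks in a list are numbered in the order of their positions. A gap in these numbers was read as a peak that had been called and then dropped by the enhancer filter. Where a region lacked a peak, the list was said to have room there if a number was missing between the flanking peaks. Of the 44 regions, 32 (72.7%) held a peak in all 4 lists, against 70.2% of all regions. The other 12 lacked 21 peaks in total, 12 of them where the list had room and 9 where it had none. Most regions lay outside exons, with 20 midpoints between genes, 15 in introns, 2 in exons and 7 in untranslated regions. A TSS lay within 1 kb of 19 of the 44 (43.2%), and of 38.3% of all regions.

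**Figure D1:**
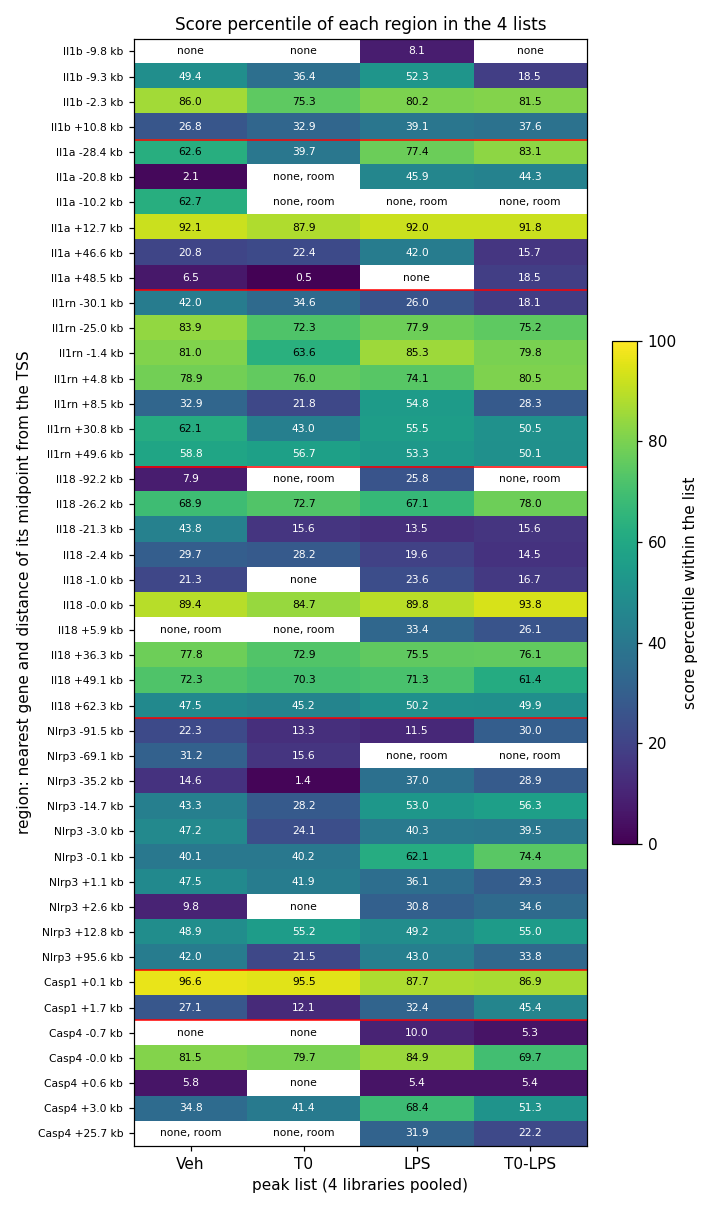
Score percentile (colour and number, 0 to 100) of the 44 regions, in rows by nearest gene and distance from its TSS in kb, in the Veh, T0, LPS and T0-LPS lists (columns, 4 libraries pooled in each). White cells hold no peak, with "room" where the numbering leaves space for a removed peak; 32 rows are filled in all 4 columns, and the row at -10.2 kb of Il1a is filled in Veh alone.

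The comparison of T0 with Veh asked where accessible enhancers were lost or gained upon LXR activation. T0-closed regions, those with a Veh peak and no T0 peak, numbered 6 of 40 (15.0%), against 18.1% of all regions. They were at -10227 and -20775 bp of Il1a, 2626 bp of Nlrp3, -1034 and -92174 bp of Il18, and 581 bp of Casp4. The converse, T0-opened, held for 0 of 34, against 0.729%. These counts depended on the lengths of the lists. With lists shortened to equal length, 2 regions were T0-closed and 2 T0-opened. Among the 34 regions with both peaks, 14 were at least 10 points lower in T0 (41.2%, against 34.1%) and 0 at least 10 points higher (against 2.02%). The median difference was -5.8 points over the 34 and -5.6 over all regions with both peaks, but this direction depended on the scale. On percentiles taken only among regions present in all 4 lists, 5 of 32 were lower and 7 higher by 10 points, with a median of 0.3 (12.9% and 13.0% of all such regions). The T0 peak was narrower than the Veh peak in 33 of 34 regions (97.1%, against 87.6%). Peaks were narrower over the whole T0 list, with a median of 351 bp against 383 bp in Veh. Whether depth played a part in the widths was not tested.

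The comparison of LPS with Veh asked where TLR4 stimulation changed the same enhancers. LPS-opened regions, with an LPS peak and no Veh peak, numbered 4 of 41 (9.76%), against 6.14%. They were at -9817 bp of Il1b, 5912 bp of Il18, and -705 and 25711 bp of Casp4. LPS-closed regions numbered 3 of 40 (7.50%, against 13.0%), at -10227 and 48465 bp of Il1a and -69077 bp of Nlrp3. Of 37 regions with both peaks, 10 were at least 10 points higher in LPS (27.0%, against 11.5%) and 5 at least 10 points lower (13.5%, against 25.3%). The split was 8 higher and 2 lower with lists shortened to equal length. On percentiles among regions of all 4 lists, 9 of 32 were higher and 3 lower (18.2% and 19.0% of all such regions). The median difference was 0.4 points, against -2.0 over all regions.

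The comparison of T0-LPS with LPS asked how LXR activation altered the stimulated state. T0-closed-in-LPS regions, with an LPS peak and no T0-LPS peak, numbered 2 of 41 (4.88%, against 9.97%), at -9817 bp of Il1b and -92174 bp of Il18. The converse held for 1 of 40 (2.50%, against 3.37%), at 48465 bp of Il1a. Of 39 regions with both peaks, 5 were at least 10 points lower in T0-LPS (12.8%, against 19.4%) and 4 at least 10 points higher (10.3%, against 7.39%). The 5 lower regions were 1 each nearest Il1b, Il1a and Il1rn and 2 at Casp4. Those that were higher lay at Il18 and Casp1 (1 each) and at Nlrp3 (2). The LPS list serves in both of the last comparisons, so a high LPS value enters them with opposite signs.

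Il1b (ENSMUSG00000027398.13, minus strand, chr2:129364570-129371139) and Il1a (ENSMUSG00000027399.1, minus strand, chr2:129299610-129309972) lie side by side and share 8 regions. No list held a peak at the Il1b TSS, and none had room for one, since the peaks on either side carried consecutive numbers across gaps of 12684 to 12769 bp. The region nearest the TSS (-2319 bp, chr2:129373198-129373718) lay in an exon of the antisense gene Il1bos. It was at percentile 86.0 (Veh), 75.3 (T0), 80.2 (LPS) and 81.5 (T0-LPS), highest in Veh and lowest in T0. Its sequence held 1 PU.1 and 1 C/EBP match, from bases 174 and 11.

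Further upstream, 2 regions lay within 1 kb of each other. The region at -9311 bp (chr2:129380239-129380660) was at percentile 49.4 (Veh), 36.4 (T0), 52.3 (LPS) and 18.5 (T0-LPS). T0-LPS was the lowest list, and the 33.8 points between it and LPS were the widest such gap of the 39 regions. Its peak was wider there, at 391 bp against 271 bp in LPS, and it held a half-site match from base 129. The neighbour at -9817 bp (chr2:129380844-129381067) held a peak in LPS alone, at percentile 8.1, with no room in the other 3 lists. Weak LPS peaks are often absent elsewhere: among regions within 5 points of 8.1 in LPS, 22.3% lacked a Veh peak and 45.8% a T0-LPS peak. This region held 1 NF-κB and 1 PU.1 match, from bases 69 and 137.

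The stretch between Il1b and Il1a contained 4 regions. At 10806 bp downstream of the Il1b TSS the percentiles were 26.8 (Veh), 32.9 (T0), 39.1 (LPS) and 37.6 (T0-LPS), with both stimulated lists above both unstimulated ones. Among regions of all 4 lists they were 8.7, 26.2, 26.5 and 29.0, with T0 close to the stimulated lists. At -28433 bp of Il1a, which is 32734 bp downstream of the Il1b TSS (chr2:129338086-129338724), the values were 62.6, 39.7, 77.4 and 83.1 in the same order. T0 was the lowest list here and T0-LPS the highest. The T0 difference of -22.9 points was -17.2 among regions of all 4 lists, and the LPS difference of 14.8 was 21.7.

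At -20775 bp of Il1a (chr2:129330554-129330940) the Veh peak was among the weakest of its list, at percentile 2.1. T0 had no peak there but had room for 2 in a gap of 40701 bp, LPS was at 45.9 and T0-LPS at 44.3. The difference of 43.8 points between LPS and Veh was the widest of the 37 regions with both peaks, while LPS and T0-LPS differed by 1.6. The Veh peak was 182 bp wide, the LPS peak 337 bp and the T0-LPS peak 387 bp. Of regions within 5 points of percentile 2.1 in Veh, 83.5% lacked a T0 peak. The sequence held overlapping NF-κB matches from bases 123 and 124 and a PU.1 match from base 48.

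The region nearest the Il1a TSS, at -10227 bp (chr2:129319913-129320485), held a peak only in Veh, at percentile 62.7 with a width of 573 bp. Missing peaks at this rank were rare. Of regions within 5 points of it in Veh, 0.719% lacked a T0 peak and 0.885% an LPS peak. All 3 of the lists without it had room, for 3 removed peaks in LPS and 2 in each of T0 and T0-LPS, in gaps of 33065 to 40701 bp that also cover the Il1a TSS. A peak that was called there and then filtered out cannot be told apart from one that was never called. Its sequence held an AP-1 match from base 79.

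Downstream of Il1a, the region at 12685 bp (chr2:129297054-129297520) was among the strongest at either cytokine gene, at 92.1 (Veh), 87.9 (T0), 92.0 (LPS) and 91.8 (T0-LPS). These values spanned 4.2 points. Within introns of Gm14024, the region at 46598 bp stood at 20.8, 22.4, 42.0 and 15.7, and the one at 48465 bp at 6.5, 0.5, none and 18.5, with no room in LPS. The first was highest in LPS and the second absent only there.

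**Figure D2:**
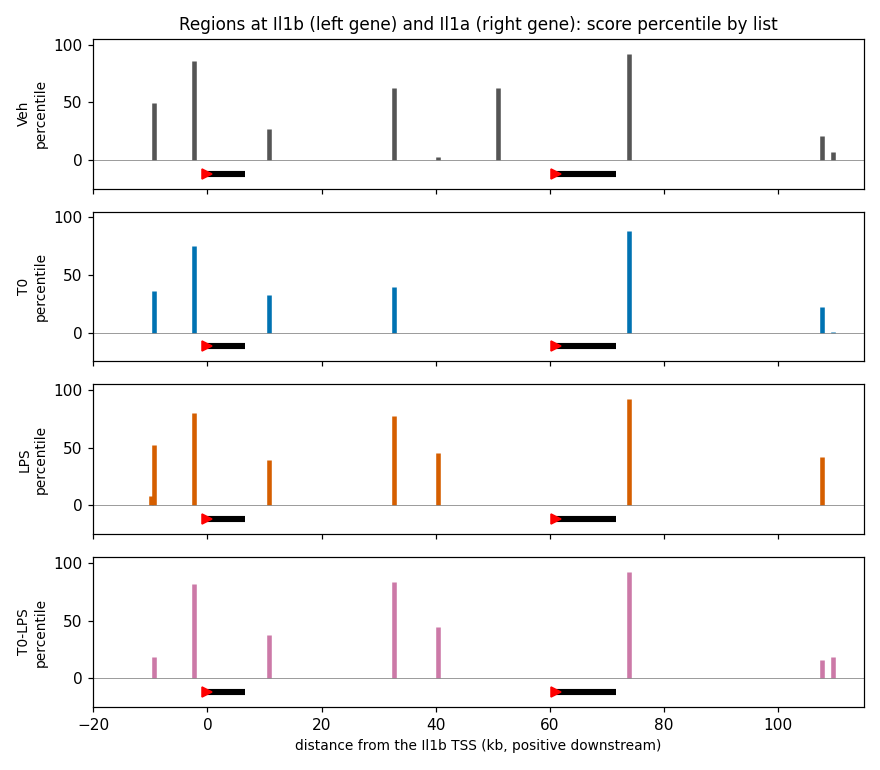
Score percentile (vertical axis, 0 to 100) of the regions around Il1b and Il1a in the Veh, T0, LPS and T0-LPS lists (panels from top to bottom), by distance from the Il1b TSS in kb. Black bars are the genes and red arrowheads mark their TSSs and direction; the bar at 50.9 kb appears in Veh only, and the one at 40.4 kb goes from 2.1 in Veh to 45.9 in LPS with none in T0.

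Il1rn (ENSMUSG00000026981.15, plus strand, chr2:24336853-24351494) was the only one of the 7 genes with every region present in all 4 lists. Its TSS held no peak and no room in any list, in gaps of 5663 to 5786 bp. Upstream of it, the region at -1388 bp (chr2:24335187-24335743) was at percentile 81.0 (Veh), 63.6 (T0), 85.3 (LPS) and 79.8 (T0-LPS). T0 stood apart as the lowest list, 17.4 points under Veh (15.5 among regions of all 4 lists), with a width of 297 bp against 539 bp. The sequence held an NF-κB match from base 151.

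All 7 Il1rn regions were lower in T0 than in Veh, with a median of -11.1 points, but only 3 of the 7 were lower among regions of all 4 lists, where the median was 1.2. The widest of these 7 on own-list percentiles was at 30764 bp (-12.9 points among regions of all 4 lists, where -1388 bp was wider), in an untranslated region of Psd4. The percentile there was 62.1 (Veh), 43.0 (T0), 55.5 (LPS) and 50.5 (T0-LPS). At 8453 bp, in an untranslated region of Il1rn (chr2:24345143-24345468), the values were 32.9, 21.8, 54.8 and 28.3. LPS was the highest list, and T0-LPS lay 26.5 points below it and close to Veh. Upstream, at -30059 bp, the order was 42.0, 34.6, 26.0 and 18.1, with LPS 16.0 points under Veh. The remaining 3 regions, at -24969, 4790 and 49643 bp, stayed between 50.1 and 83.9 in every list.

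Il18 (ENSMUSG00000039217.13, plus strand, chr9:50554827-50581840) had a peak across its TSS in every list. The region at -20 bp (chr9:50554572-50555042) was at percentile 89.4 (Veh), 84.7 (T0), 89.8 (LPS) and 93.8 (T0-LPS). It was high in all 4, with T0 lowest. A T0-closed region lay 1034 bp upstream, in an intron of Bco2 (chr9:50553680-50553906). It was at 21.3 in Veh, absent without room in T0, at 23.6 in LPS and at 16.7 in T0-LPS. Of regions within 5 points of it in Veh, 39.6% lacked a T0 peak. Its sequence held 1 of the 2 ISRE matches among the 44 regions, from base 169.

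Another T0-closed region, at -92174 bp (chr9:50462438-50462868), was at 7.9 in Veh and 25.8 in LPS and was missing from both T0 and T0-LPS, each with room. The LPS-opened region at 5912 bp (chr9:50560551-50560926), in introns of Il18 and Tex12, was at 33.4 in LPS and 26.1 in T0-LPS, and Veh and T0 each had room for 1 peak. Among regions within 5 points of it in LPS, 5.17% lacked a Veh peak. In an exon of Gm47077, the region at -21302 bp (chr9:50533383-50533666) was at 43.8 in Veh and at 15.6, 13.5 and 15.6 in T0, LPS and T0-LPS. Veh alone was high there, and both single treatments lay 28.2 and 30.3 points below it. Among regions of all 4 lists these differences were -16.1 (T0) and -21.3 (LPS) points. At -26230 bp, in an untranslated region of Pts, T0-LPS at 78.0 was 10.9 points above LPS at 67.1. Among regions of all 4 lists that difference was 15.1 points, and T0 was 10.7 points above Veh. At -2403 bp, in an intron of Bco2, LPS at 19.6 was 10.1 points below Veh at 29.7. That LPS difference was only -2.8 points among regions of all 4 lists, where T0 was 10.4 points above Veh. The 3 regions downstream, at 36295, 49056 and 62349 bp, ranged from 45.2 to 77.8 over the lists, and none of their differences reached 10 points. The median of the 7 Il18 regions in all lists was -2.3 points for T0 against Veh, and 3.7 on percentiles among regions of all 4 lists.

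Nlrp3 (ENSMUSG00000032691.14, plus strand, chr11:59541568-59566956) had its TSS within a peak in every list. The region there, at -98 bp (chr11:59541241-59541699), was at percentile 40.1 (Veh), 40.2 (T0), 62.1 (LPS) and 74.4 (T0-LPS). Veh and T0 were level on this scale and both stimulated lists were higher, T0-LPS by 12.3 points more than LPS. Among regions of all 4 lists the values were 21.7, 33.7, 53.3 and 70.2, with T0 over 10 points above Veh. Its width was 332 bp (Veh), 295 bp (T0), 447 bp (LPS) and 459 bp (T0-LPS). It contained an NF-κB match from base 14 of the central window.

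A T0-closed region lay in an intron of Nlrp3 at 2626 bp (chr11:59544018-59544369). It was at 9.8 in Veh, absent without room in T0, and at 30.8 in LPS and 34.6 in T0-LPS, both above Veh. Its sequence held an NF-κB match from base 77 and an AP-1 match from base 155. Of regions within 5 points of it in Veh, 70.4% lacked a T0 peak. The LPS-closed region at -69077 bp was at 31.2 in Veh and 15.6 in T0, and both stimulated lists lacked it with room for 1 peak.

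Of the other Nlrp3 regions, the one at -2976 bp had the widest difference between T0 and Veh on own-list percentiles. Its values were 47.2 (Veh), 24.1 (T0), 40.3 (LPS) and 39.5 (T0-LPS). T0 alone was low there, and the sequence window held 2 C/EBP matches. Among regions of all 4 lists its T0 difference was -13.0 points, and the one at 12815 bp was wider, with the opposite sign. At -35164 bp, in an untranslated region of Zkscan17, LPS at 37.0 was 22.4 points above Veh, T0 was at 1.4 and T0-LPS at 28.9. At 1066 bp, in an intron, the values were 47.5, 41.9, 36.1 and 29.3, with LPS 11.4 points under Veh. Among regions of all 4 lists this difference was -7.5 points. The nearest regions on either side, at -98 and 2626 bp, were higher in LPS than in Veh. Near the edge of the window, at -91501 bp, T0-LPS at 30.0 was 18.5 points above LPS at 11.5. The remaining regions were at -14740, 12815 and 95622 bp. At -14740 bp the percentile was lowest in T0 (28.2) and highest in T0-LPS (56.3). At 12815 bp it was between 48.9 and 55.2. Among regions of all 4 lists, however, T0 (49.9) was 17.3 points above Veh (32.6) there, and T0-LPS (48.1) 10.2 above LPS (37.9). At 95622 bp, T0 (21.5) was 20.5 points below Veh (42.0), or 8.9 points (15.1 and 24.0) among regions of all 4 lists. The median of the 8 Nlrp3 regions in all lists was -11.1 points for T0 against Veh, and 0.5 on percentiles among regions of all 4 lists.

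Casp1 (ENSMUSG00000025888.5, plus strand, chr9:5298517-5307265) and Casp4 (ENSMUSG00000033538.13, plus strand, chr9:5308828-5336783) lie in tandem, and both TSSs were covered by a peak in every list. The Casp1 TSS region, at 77 bp (chr9:5298173-5299015), was the strongest of the 44 in Veh and T0. It was at percentile 96.6 (Veh), 95.5 (T0), 87.7 (LPS) and 86.9 (T0-LPS), with the stimulated lists lower than the others. Its width was 835, 816, 620 and 560 bp in the same order, and it held the other ISRE match. Its intronic neighbour at 1713 bp was at 27.1 (Veh), 12.1 (T0), 32.4 (LPS) and 45.4 (T0-LPS). T0 was lowest and T0-LPS highest, so the difference with T0 was -15.0 points without LPS and 13.0 with it. Among regions of all 4 lists these were -1.6 and 17.9, so that only the second reached 10 points.

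The Casp4 TSS region, at -7 bp (chr9:5308505-5309137), was at percentile 81.5 (Veh), 79.7 (T0), 84.9 (LPS) and 69.7 (T0-LPS). Only T0-LPS stood apart, 15.2 points under LPS, and its peak was 453 bp wide against 580 bp. Overlapping NF-κB matches began at bases 36 and 37 of its window. In an intron at 3050 bp (chr9:5311674-5312082) the values were 34.8, 41.4, 68.4 and 51.3. LPS was highest, 33.6 points over Veh and 17.1 over T0-LPS, and the sequence held an AP-1 match from base 168. Among regions of all 4 lists the values were 16.0, 34.9, 60.9 and 43.9, with T0 18.9 points above Veh.

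The rest of the Casp4 differences lay at lower percentiles. The LPS-opened region at -705 bp was at 10.0 in LPS and 5.3 in T0-LPS, with no room in Veh or T0. Among regions within 5 points of it in LPS, 20.2% lacked a Veh peak. The LPS-opened region at 25711 bp (chr9:5334395-5334683), in an intron, was at 31.9 in LPS and 22.2 in T0-LPS. Veh and T0 had room for 3 peaks in gaps of over 1 Mb. Among regions within 5 points of it in LPS, 6.12% lacked a Veh peak. The T0-closed region at 581 bp was at 5.8 in Veh, 5.4 in LPS and 5.4 in T0-LPS, with no room in T0. Of regions within 5 points of it in Veh, 79.0% lacked a T0 peak.

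**Figure D3:**
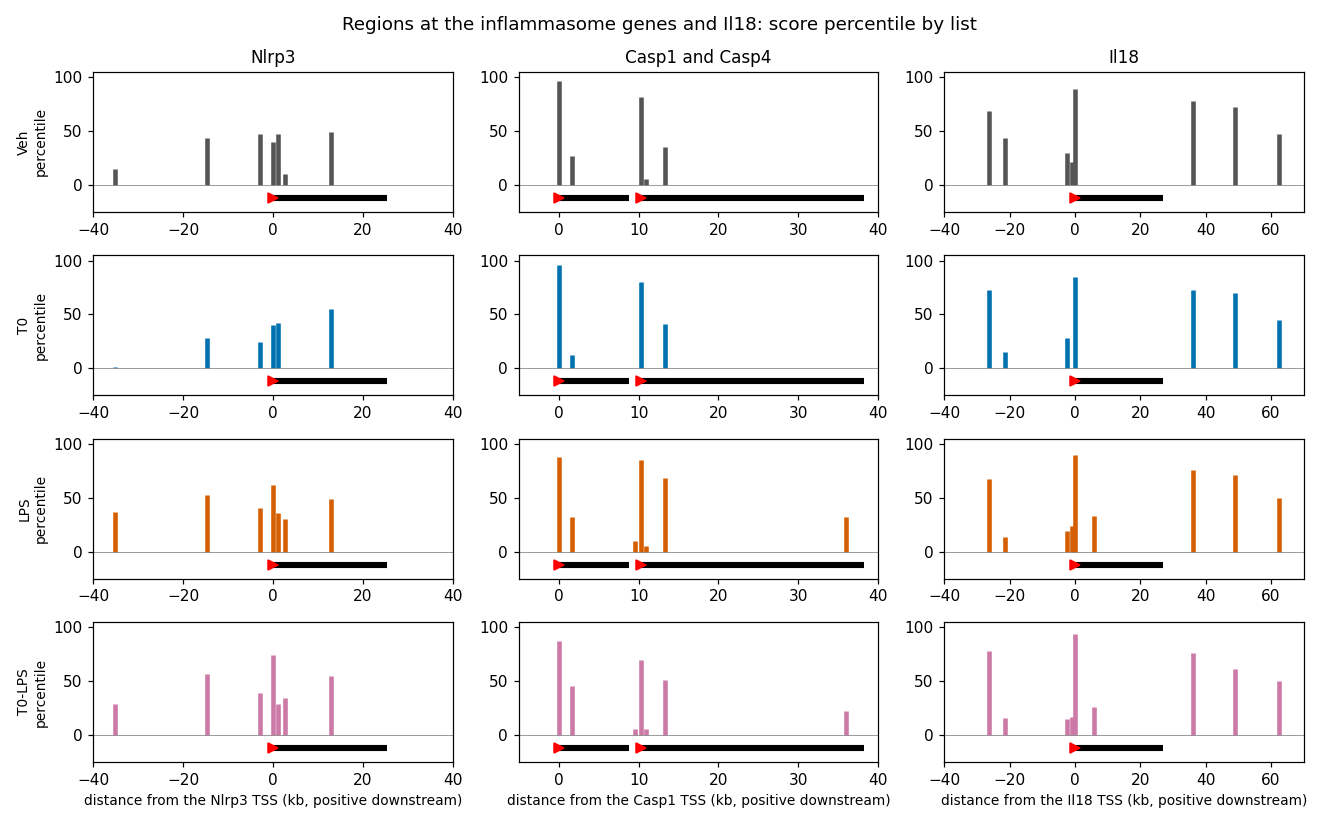
Score percentile (vertical axes, 0 to 100) of the regions near Nlrp3, Casp1 with Casp4, and Il18 (columns) in the 4 lists (rows), by distance from the TSS of Nlrp3, Casp1 or Il18 in kb. Black bars are the genes and red arrowheads the TSSs; the bar at the Nlrp3 TSS is at 40.1 in Veh and 74.4 in T0-LPS, while that at the Casp1 TSS is at 96.6 in Veh and 86.9 in T0-LPS.

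Because a peak's percentile can move further in the middle of a list than at its top, each difference was set beside those of all regions within 5 points of the same percentile in the reference list. The range given is that of the central 90% of these regions, so that 10% of regions lie outside it by construction. With Veh as the reference list, 0 of 34 differences of T0 lay outside. With T0 as the reference, 1 did, at Il1rn -1388 bp. For LPS against Veh, with Veh as the reference, 4 of 37 lay above their range and 1 below. Those above were Nlrp3 -98 bp (22.0, range -29.8 to 19.5), Casp4 3050 bp (33.6, range -27.0 to 21.0), Il1a -28433 bp (14.8, range -29.7 to 13.3) and Il1rn 8453 bp (21.9, range -25.8 to 21.5). The one below was Casp1 77 bp (-8.9, range -8.8 to 2.5). The last 3 of these 5 passed the bound by under 2 points. With LPS as the reference 6 regions lay outside, and only Casp4 3050 bp and Casp1 77 bp did so both ways. The other 4 were Il1a -20775 bp, Il18 -92174 bp, and Nlrp3 -35164 and 2626 bp, each lower in Veh than the range of its like regions.

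For T0-LPS against LPS, with LPS as the reference, 4 of 39 lay below their range and 3 above. The widest departure was at Il1b -9311 bp (-33.8, range -23.5 to 12.9). The others below were Il1rn 8453 bp (-26.5, range -22.2 to 12.2), Il1a 46598 bp (-26.3, range -24.5 to 13.4) and Casp4 -7 bp (-15.2, range -12.3 to 5.9). Above were Nlrp3 -98 bp (12.3, range -19.8 to 10.5), Nlrp3 -91501 bp (18.5, range -10.7 to 18.3) and Il18 -26230 bp (10.9, range -18.9 to 9.9). Il1a 46598 bp and all 3 regions above passed the bound by under 2 points. With T0-LPS as the reference 5 regions lay outside, all among these 7, and Nlrp3 -98 bp and Il18 -26230 bp lay inside.

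**Figure D4:**
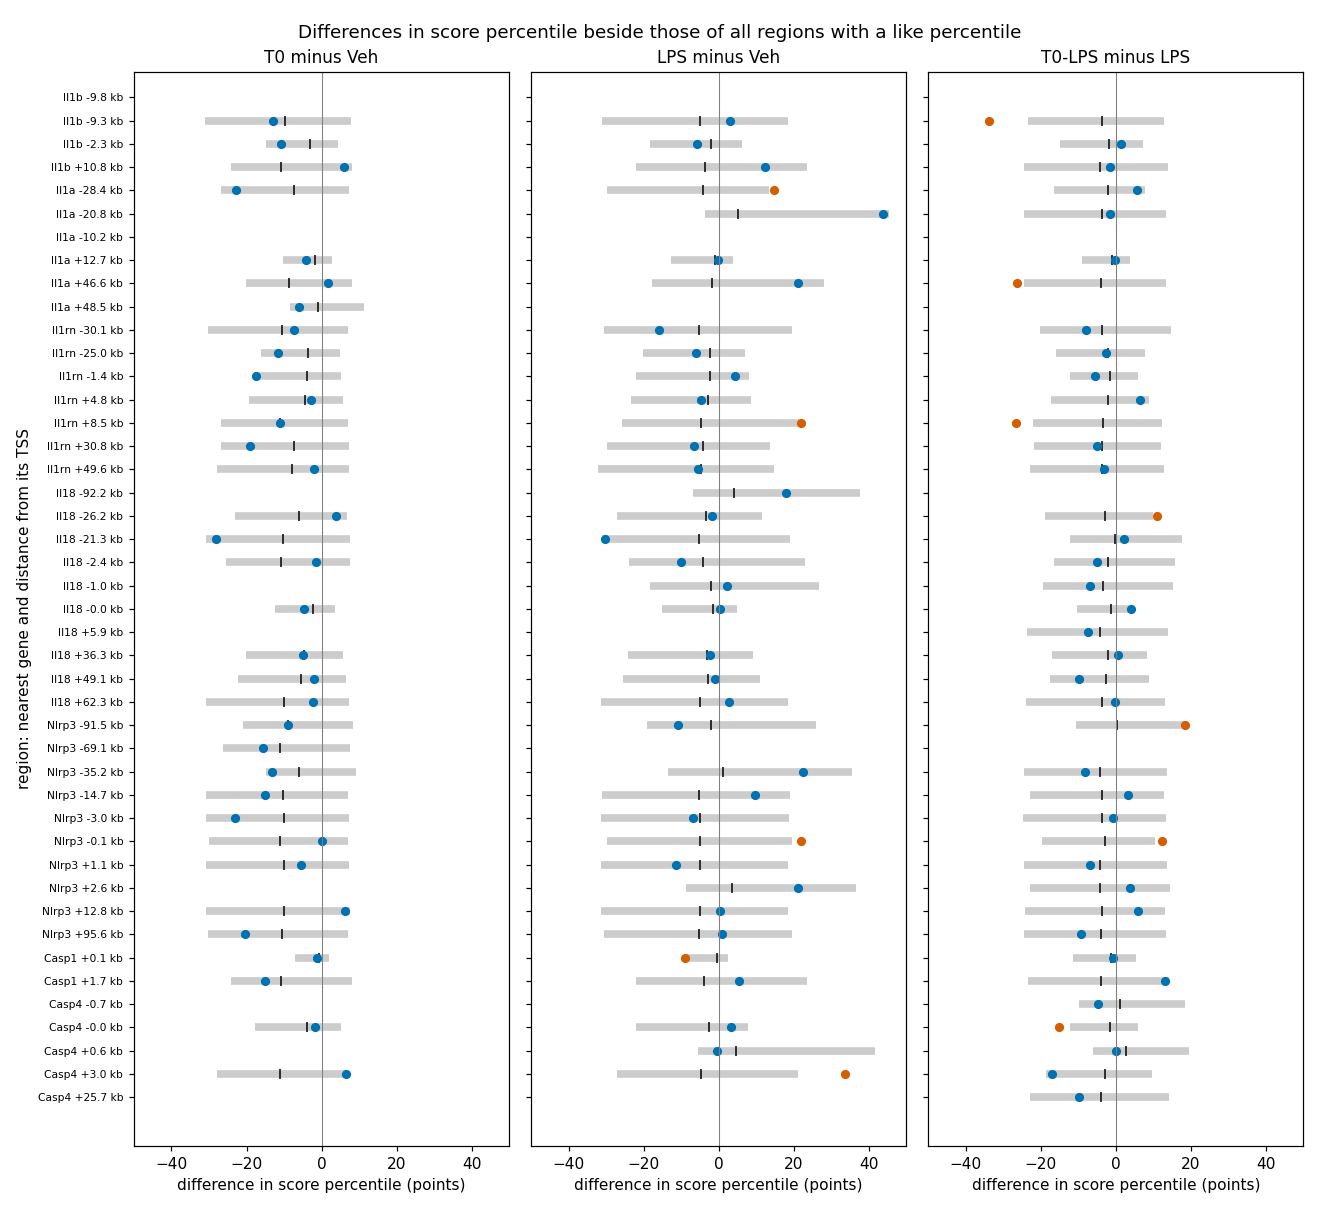
Difference in score percentile (horizontal axes, points) of each region (rows, by nearest gene and distance from its TSS in kb) for T0 minus Veh, LPS minus Veh and T0-LPS minus LPS (panels). Grey bars span the central 90% of differences of all regions within 5 points of the same percentile in the reference list, with a tick at their median; orange dots lie outside the bar (0, 5 and 7 regions) and blue dots inside.

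Motif letters were counted in the central 200 bases of each region, on both strands, as a description of sequence and not of binding. NF-κB letters occurred in 6 of the 44 regions (13.6%), against 4.30% of all regions and 18.1% of all LPS-opened regions. The 6 were Il1b -9817 bp, Il1a -20775 bp, Il1rn -1388 bp, Nlrp3 -98 and 2626 bp, and Casp4 -7 bp. All 6 held an LPS peak, and 4 of them (66.7%) were LPS-opened or at least 10 points higher in LPS than in Veh. The exceptions were Il1rn -1388 bp and Casp4 -7 bp. Of the 35 regions with an LPS peak and no match, 10 (28.6%) were so. Over all regions the shares were 50.8% of those with a match and 15.3% of those without.

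AP-1 letters were found in 9 regions (20.5%, against 16.6%), PU.1 in 6 (13.6%, against 8.55%), C/EBP in 3 (6.82%, against 10.7%) and ISRE in 2 (4.55%, against 3.79%). The half-site, whose letters are part of the LXR response element, occurred in 9 (20.5%, against 11.9%). None of the 9 was T0-closed, compared with 6 of 31 Veh regions without it, while over all regions 18.1% were T0-closed both with and without the letters. The median GC content of the windows was 47.2%, against 52.0%.

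The pathway beyond the 7 genes was read from 3 gene lists. Some regions of these lists are shared between genes. Of 15 IL-1 family members and receptors, 8 had a T0-closed region (10 of 54 regions, 18.5%) and 3 an LPS-opened one (3 of 52, 5.77%), shares near the 18.1% and 6.14% of all regions. Of their 46 regions with LPS and T0-LPS peaks, 14 were at least 10 points lower in T0-LPS and 0 higher, with a median of -3.0 points, against 19.4%, 7.39% and -1.7 over all regions. In the other lists 26 were lower and 13 higher of 146 (inflammasome), and 18 lower and 3 higher of 68 (IL-1 receptor signalling). The closest T0-closed region was at the TSS of Il18rap, a subunit of the IL-18 receptor (-3 bp), at percentile 3.9 in Veh, 24.9 in LPS and 9.2 in T0-LPS, with room in T0.

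Of 19 inflammasome sensors, adaptors and effectors, 14 had a T0-closed region (28 of 162, 17.3%) and 7 an LPS-opened one (10 of 157, 6.37%), again near the shares of all regions. The T0-closed region at the TSS of Nlrc4, the sensor adaptor of the NAIP inflammasome (-66 bp), was at 57.8 in Veh, 74.6 in LPS and 81.3 in T0-LPS, again with room in T0. At Nek7, which binds NLRP3, a region at -99 bp was at 18.1 in Veh and missing from the other 3 lists, with room in T0. LPS-opened regions without room in Veh lay nearest to Ninj1, which acts in membrane rupture (-9457 bp, percentile 6.7), and Mefv, which encodes pyrin (-10397 bp, percentile 18.5). The 10 genes of IL-1 receptor signalling had 94 regions in total. Of these, 25 of 87 (28.7%, against 18.1%) were T0-closed, with at least 1 at each gene. Of coding genes, which have a median of 5 regions, 51.2% have one. These 25 regions were all at percentile 45.2 or lower in Veh, and weak Veh peaks often lack a T0 peak. Among all regions, 83.5% of those within 5 points of percentile 2.1 in Veh lacked one, and 0.719% of those within 5 points of 62.7. The share of 28.7% was not matched for this, and it was not tested in lists of equal length. LPS-opened were 6 of 77 (7.79%, against 6.14%), at 4 genes. The LPS-opened regions nearest a TSS were intronic, in Irak2, a kinase of the receptor complex (11126 bp, percentile 2.7), and Tab2, a TAK1 adaptor (13048 bp, percentile 30.8).

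Counted by gene, 6 of the 7 genes had a T0-closed region within 100 kb, as did 51.2% of 21938 protein-coding genes, and 5 had an LPS-opened region, as did 23.9%. The 7 genes had 7 to 10 regions each, against a median of 5, and the gene shares are not matched for this. By region, 15.0% were T0-closed (against 18.1%) and 9.76% LPS-opened (against 6.14%). Il1rn alone had no T0-closed region, and Il1rn and Nlrp3 had no LPS-opened one. A T0-closed-in-LPS region lay near 3 of the 7 (34.3% of coding genes) and an LPS-closed region near 3 (41.7%). The shared regions of Il1b with Il1a and of Casp1 with Casp4 enter these gene counts more than once.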

How the data were processed

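ATAC-seq was performed on 16 libraries in 4 groups of 4. Per the study's methods and the submitters' processing notes, the authors trimmed adaptors (cutadapt), used Bowtie2 for alignment and SAMtools to drop PCR duplicates, called peaks with MACS2 on the pooled libraries of a group and kept peaks at macrophage enhancers with bedtools. The Bowtie2 version is not given in the sources used here. The processing notes list mm10, and 0 of 129556 peaks on the main chromosomes passed a GRCm38 chromosome end. The deposited lists give each peak's position, numbered name and score. No header defines the score, and it was taken to be the peak caller's. Such a score depends on the depth of the pooled libraries, so scores were compared only as percentiles of their own list. T0 and T0-LPS lists are shorter, and a list without its weakest peaks gives the same peak a lower percentile.

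Peaks overlapping by 1 bp or more were merged. Genes and TSSs are those of the GENCODE vM21 basic annotation. With 1 pooled list per group, no test, p-value or interval was computed, and counts stand beside the same counts over all regions. Markers needed a peak within 1 kb of the TSS. Motifs were searched as consensus letters on both strands of GRCm38 (RefSeq assembly). The scripts (Python 3.11.15, numpy 2.4.6, matplotlib 3.10.9, samtools 1.23.1) were tested on simulated data. The genes, gene lists and rules were chosen with earlier results of these data known. For each gene, the text gives the region nearest the TSS, each region missing from a list, and the widest difference of at least 10 points in each direction of each comparison. The rule for sequences named the regions at -2319 bp of Il1b and -10227 bp of Il1a, and the other 8 printed sequences were chosen after their values were seen. Alternatives were a 50 kb window, any annotated TSS, lists of equal length, a score of at least 200, a reciprocal overlap of 50%, percentiles among regions of all 4 lists and a threshold of 20 points.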

Additional observations from a re-analysis of the deposited data

Results flagged for a closer look

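At 1713 bp downstream of the Casp1 TSS, in an intron, the difference in score percentile with T0 had opposite signs without and with LPS, which is what singled it out. It was -15.0 points for T0 minus Veh (12.1 against 27.1) and 13.0 points for T0-LPS minus LPS (45.4 against 32.4). On percentiles among regions of all 4 lists the differences were -1.6 and 17.9. The difference between these 2 effects was not tested, since each group is 1 pooled list. Of 26439 regions with a peak in all 4 lists, 887 (3.35%) had differences of at least 10 points with opposite signs, in either order. Of these, 783 (2.96% of the 26439) were likewise lower with T0 without LPS and higher with it.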

How the results depend on the processing

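Of 70 alternative values, 45 stayed within 1.5 times the reported count and 25 did not. With lists shortened to equal length, T0-closed regions numbered 2, T0-opened 2, T0-closed-in-LPS 1 and T0-opened-in-LPS 3, while 5 regions were lower and 6 higher in T0 than in Veh and 2 lower in LPS than in Veh. With a score of at least 200, 19 regions were held by all lists, 5 were LPS-closed, 7 T0-closed-in-LPS and 0 T0-opened-in-LPS. With percentiles among regions of all 4 lists, 5 were lower and 7 higher in T0 than in Veh, and 3 lower in LPS than in Veh. At a threshold of 20 points, 4 were lower in T0 than in Veh, 1 lower in LPS than in Veh, 3 lower in T0-LPS than in LPS and 0 higher. With a reciprocal overlap of 50%, 1 was T0-opened and 2 T0-opened-in-LPS, and with a window of 50 kb 1 was T0-closed-in-LPS. Counting only peaks missing where the list had no room, an alternative chosen after seeing the data, left 3 T0-closed, 1 LPS-closed, 2 LPS-opened and 1 T0-closed-in-LPS. The cause of these moves was not tested. No paired analysis was possible because the 4 libraries of a group were pooled into 1 list, and for the same reason no library could be left out. Regions with a missing peak were at percentile 45.9 or lower in every list that held them, apart from Il1a -10227 bp (62.7 in Veh). Depth per library is unknown.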
